A study of Mus musculus with 4 samples.

Results

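The Cep genes are the mouse genes whose symbol is Cep followed only by digits, a name given to proteins found at the centrosome. They were found by matching the array's probes to RefSeq gene symbols and keeping every symbol of that form, whatever its values. This gave 34 genes, measured by 67 probes, of 22911 genes with a named probe. They lie on 16 chromosomes, 25 of them had more than 1 probe and 9 had 1.

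MC3T3-E1 is a clonal mouse line of calvarial preosteoblasts, the cells that form bone. Cells received 50 µM Miglustat, 10 µM D-PDMP, 1.0 µM D-PPMP or, as Control, none of these inhibitors, were replated 4 days later and were harvested after another 24 h. Whether the compounds stayed in the medium after replating, and whether the Control received a vehicle, is not given in the sources used here. All 3 compounds inhibit glucosylceramide synthase, the enzyme (encoded by Ugcg) that makes the first glycosphingolipid from ceramide, and the design asks how RNA levels differ when it is inhibited. Miglustat is an iminosugar, while D-PDMP and D-PPMP are ceramide-like morpholino compounds that differ in the length of their fatty acyl chain. Each group is 1 RNA sample on 1 single-colour Agilent array, so no difference below has a replicate error or a test. The doses differ, so values under the 3 inhibitors are given side by side, the order of the 4 arrays is a description of those arrays and not a comparison of compounds, and all 3 comparisons share the same Control array.

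The centrosome is built around a pair of centrioles, short barrels of microtubules that are copied once per cell cycle. The older centriole carries distal appendages, which dock it to the membrane, and subdistal appendages, which anchor microtubules. In a resting cell it can become the base of a primary cilium, the antenna through which bone-forming cells sense fluid flow and Hedgehog signals. Cep proteins serve at each of these steps: assembly and copying of the centriole, the appendages and the linker between centrioles, the satellites and transition zone that supply and gate the cilium, and the final cut between daughter cells.

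Levels are log2 of the scanner's processed signal minus the 75th percentile of the same array, so that 0 stands at that percentile. A log2 ratio is the inhibitor's level minus the Control's level. Where a gene had several probes the brightest was used, and the others are given below for some genes only. The error of a log2 ratio that the scanner software reports for these genes ran between 0.204 and 0.300, with a median of 0.204. It covers the measurement on the array and not the spread between cultures. A gene was counted as higher or lower when its log2 ratio was at least 0.32 away from 0 and it was well above background on both arrays. All 34 Cep genes were well above background on all 4 arrays, as were 61.1% of all genes with a named probe.

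The 4 arrays each held 59305 spots, none of them saturated, and 60.2%, 60.8% and 62.4% of probes were well above background with Miglustat, D-PDMP and D-PPMP, against 57.4% in Control. The arrays lay side by side on 1 slide, with Miglustat, D-PDMP and D-PPMP at positions 2, 3 and 4 and Control at position 1, so the place on the slide cannot be told apart from the group. Of 10 osteoblast markers, 7, 8 and 8 were well above background with the inhibitors and 7 in Control. Alpl and Ibsp were not on any array, and Bglap was with D-PDMP and D-PPMP only. The summed osteoblast marker level was 10.36, 10.30 and 10.25 on the log2 scale with the inhibitors, against 10.50 in Control. Among markers of epithelium and of multiciliated cells, which carry many centrioles per cell, 5, 6 and 6 of 8 were well above background with the inhibitors and 6 in Control. Their summed level was 4.56, 4.49 and 4.43, against 4.60 in Control. Cdh1, Mcidas, Ccno and Deup1 were well above background on all 4 arrays, Foxj1, Krt8 and Krt18 on some, and Epcam on none. Of 7 macrophage and osteoclast markers, 5, 4 and 5 were well above background with the inhibitors and 5 in Control, with summed levels of 4.09, 3.86 and 3.77, against 4.06 in Control. Cd68, Csf1r, Ctsk and Ocstamp were well above background on all 4 arrays, Acp5 on all but that of D-PDMP, and Ptprc and Adgre1 on none. Summed levels of 6 chondrocyte markers were 6.47, 5.83 and 5.75, against 6.09 in Control, and those of 6 adipocyte markers were -0.52, -0.66 and -0.66, against -0.91 in Control. The part of other cell types in the Cep values was not tested. The target gene Ugcg had log2 ratios of 0.091, 0.078 and 0.00062 with Miglustat, D-PDMP and D-PPMP. The inhibitors block the enzyme, so its RNA level is no check of the labels.

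Most Cep genes lay slightly above their Control level with each inhibitor, by amounts mostly smaller than the software error of a single ratio. With Miglustat 24 of 34 were above Control, where 44.5% of the 14171 genes measured on both arrays were above it. The count was 25 of 34 with D-PDMP, against a background of 49.6% of 14154 genes, and 23 of 34 with D-PPMP, against 48.5% of 14200 genes. The median log2 ratio of the Cep genes was 0.072, 0.084 and 0.060 with Miglustat, D-PDMP and D-PPMP, while the median over all measured genes was -0.018, -0.0012 and -0.0052. The median of the Cep genes stayed above 0 in each of the 9 alternative ways of processing the arrays, but with D-PPMP it came to 0.018 with normexp on the median spot signal and 0.021 with the probes of a gene averaged. Not all alternatives could move it. Without the filter on dim probes it could not change, since all 34 genes passed that filter. The authors' table uses the same formula as the main values. Keeping outlier spots left it at 0.072 with Miglustat and 0.084 with D-PDMP. With D-PPMP the count above Control was 20 of 34 under quantile scaling, cyclic loess scaling and averaged probes. In bulk RNA, a change in the share of cells that express a gene and a change in RNA per cell cannot be told apart.

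Few Cep genes passed the limit of 0.32, which are called higher or lower here. With Miglustat 1 Cep gene was higher (Cep72), where 5.77% of all genes were, and none was lower, where 4.59% were. With D-PDMP 3 were higher (Cep126, Cep78 and Cep44), against a background of 4.91%, and none was lower, against 4.8%. With D-PPMP 1 was higher (Cep78), against 7.54%, and 1 was lower (Cep41), against 5.23%. The other 29 Cep genes were called in no comparison. No share of all genes called in any comparison is given here, so counts over the comparisons together have no background. None reached 2-fold in either direction. Over all genes, the share at least 2-fold higher was 0.212% under Miglustat, 0.155% under D-PDMP and 0.303% under D-PPMP, and the share at least 2-fold lower was 0.176%, 0.17% and 0.204% in the same order.

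**Figure D1:**
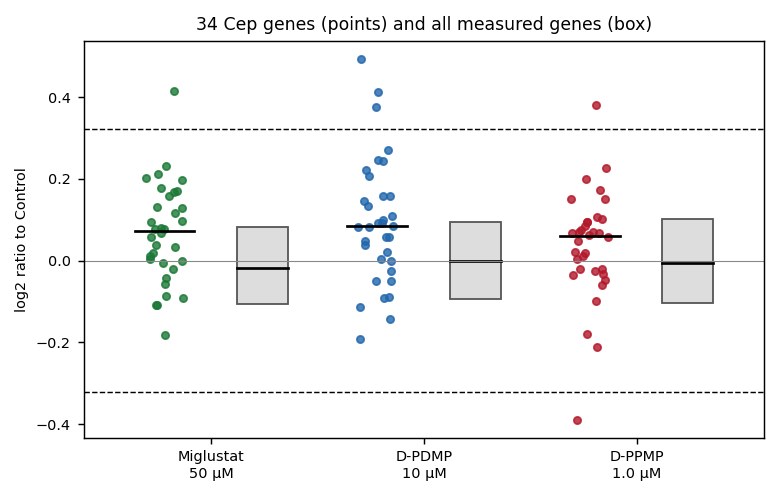
Log2 ratio to Control (vertical axis) for the 34 Cep genes as points and for all measured genes as a grey box from the first to the third quartile, for each inhibitor. Black lines are medians and dashed lines mark a log2 ratio of 0.32 in either direction; the Cep medians of 0.072, 0.084 and 0.060 lie above the medians of all genes of -0.018, -0.0012 and -0.0052, and the points stay mostly between the dashed lines.

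The ratio exceeded its own software error for 3, 8 and 4 Cep genes under Miglustat, D-PDMP and D-PPMP. It exceeded that error by a factor of 2 for 1 gene, Cep72 with Miglustat, and for none with the other inhibitors. Over 5 other scalings of the arrays, with a value of 0 counted as turned, the direction stayed the same for 26, 30 and 29 of the 34 genes with Miglustat, D-PDMP and D-PPMP. Among those that kept it, 19, 22 and 19 were above Control. No share over all genes is given for the counts in this paragraph, so whether they differ from the background is not known.

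Centriole assembly and copying involves 11 of the genes. With Miglustat, D-PDMP and D-PPMP, 8, 9 and 7 of them were above Control, and the median log2 ratio was 0.097, 0.15 and 0.067. Only 1, Cep44, was called in any comparison, and no share of all genes is given for such a count. Cep44 encodes a protein inside the centriole that, in human cells, is needed for a new centriole to become a centrosome. The log2 level of Cep44 was -3.19, -2.94 and -3.36 with Miglustat, D-PDMP and D-PPMP, against -3.32 in Control. The array treated with D-PDMP was the highest of the 4, at 1.30-fold of Control (log2 ratio 0.38), and those of Miglustat and D-PPMP were at 0.13 and -0.047. Cep44 is dim and has 1 probe, and over the scalings its ratio with D-PDMP ran between 0.11 and 0.38.

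The promoter of Cep44 is shown because it holds TTCCCGCC, a form of the site bound by the E2F factors that act at the start of DNA replication. It is the RefSeq window from 250 bases before to 50 bases after the start of the gene, on GRCm38.p6, chr8:56550517-56550816, minus strand, with the motif in capitals at position -171 from the start.
Cep44: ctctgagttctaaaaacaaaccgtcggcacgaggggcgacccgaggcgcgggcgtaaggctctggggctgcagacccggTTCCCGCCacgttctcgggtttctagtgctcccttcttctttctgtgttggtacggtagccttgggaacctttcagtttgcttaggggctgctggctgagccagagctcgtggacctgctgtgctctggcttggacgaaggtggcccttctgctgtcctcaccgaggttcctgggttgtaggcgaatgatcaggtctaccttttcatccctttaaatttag
The letters are a description of the sequence, and no binding was measured.

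Several genes of this role were above Control on all 3 arrays. Cep76, which restrains a second round of copying, was at -0.86, -0.84 and -0.94 with Miglustat, D-PDMP and D-PPMP, against -1.09 in Control. All the treated arrays were above Control, with log2 ratios of 0.23, 0.25 and 0.15, the first pair past the software error. Cep57, a scaffold of the pericentriolar material, had ratios of 0.17, 0.24 and 0.071, and only that of D-PDMP exceeded the error. Cep135, a part of the cartwheel on which a centriole is built, was at -0.78, -0.77 and -0.68 with the inhibitors, against -0.88 in Control. Its ratios were 0.097, 0.11 and 0.20, and its second probe gave 0.35, 0.19 and 0.30, above Control in each case.

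By their brightest probes, the partners that bring the kinase Plk4 to the parent centriole were close to Control. Cep63 had log2 ratios of 0.080, -0.00085 and 0.067 with Miglustat, D-PDMP and D-PPMP. Cep152, which binds Plk4 and Cep63, had -0.021, -0.051 and 0.15. Cep192, which recruits Plk4 and pericentriolar material, had -0.00012, 0.058 and -0.026. The second probes gave -0.11, -0.038 and 0.023 for Cep63, and -0.16, 0.040 and -0.18 for Cep152. For Cep192 the second probe was above Control on every treated array, at 0.22, 0.18 and 0.13. The signs for Cep63 with D-PDMP and for Cep152 and Cep192 with Miglustat turned under another scaling.

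Among the factors that set the length and cap of the centriole, Cep97 lay on both sides of Control with D-PDMP, depending on the probe. Cep97, partner of the capping protein encoded by Ccp110, had log2 ratios of 0.068, 0.27 and -0.035, and its other probe was at -0.40 with D-PDMP. Cep120, an elongation factor, had 0.17, 0.038 and 0.019. Cep295, needed for a new centriole to mature into a centrosome, had 0.16 and 0.22 with Miglustat and D-PDMP and -0.099 with D-PPMP. Cep85, which in human cells binds the duplication factor STIL, was at -2.91, -2.65 and -2.62 with the inhibitors, against -2.80 in Control. Its ratios were -0.11, 0.15 and 0.17. The second probe gave 0.67 with Miglustat, and the sign with D-PDMP turned with normexp on the median spot signal.

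**Figure D2:**
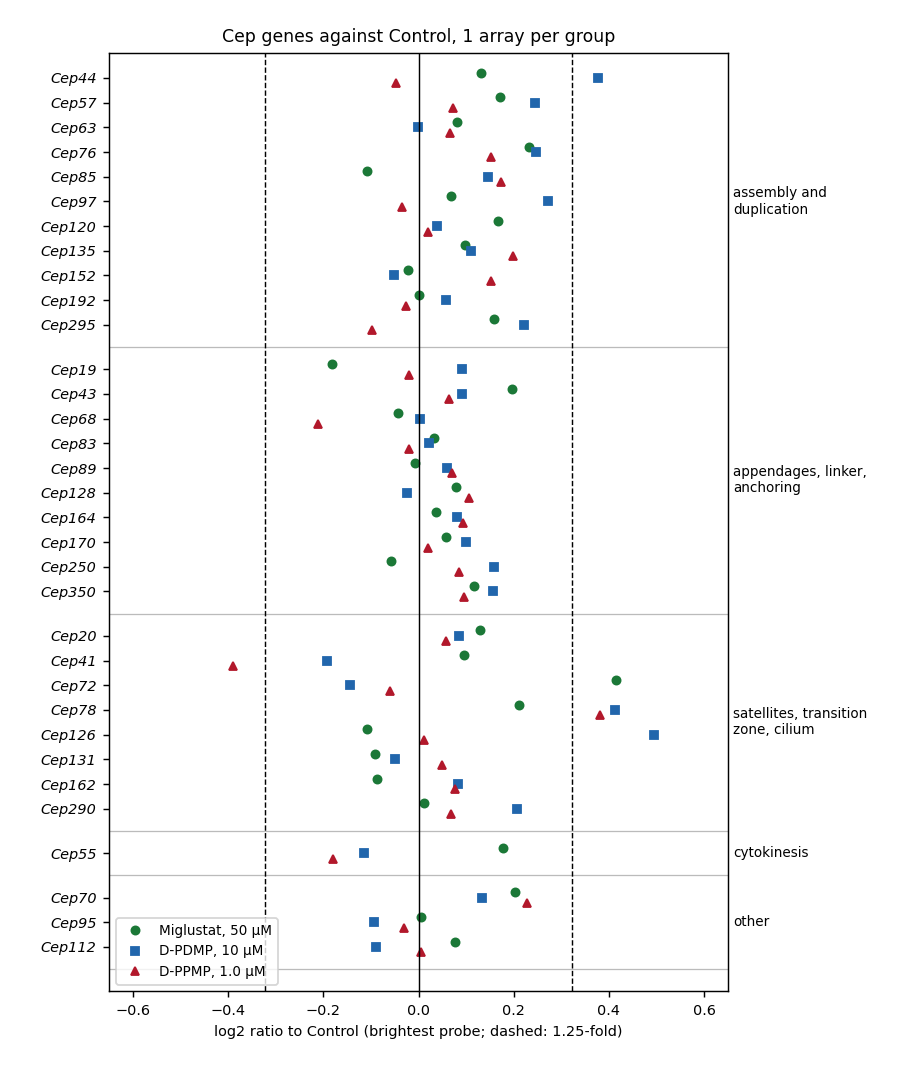
Log2 ratio to Control (horizontal axis) of the brightest probe of 33 Cep genes, 1 array per group, with genes ordered by role down the page and dashed lines at a ratio of 0.32 in either direction. The points right of the right-hand line are Cep72 with Miglustat (0.41), Cep44, Cep78 and Cep126 with D-PDMP (0.38, 0.41 and 0.49) and Cep78 with D-PPMP (0.38), and Cep41 with D-PPMP (-0.39) lies left of the left-hand line.

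The 10 genes of the appendages, the linker and microtubule anchoring held none that was called in any comparison. No share of all genes is given for such a count. Of these, 6, 9 and 7 were above Control under Miglustat, D-PDMP and D-PPMP, and their median log2 ratio was 0.035, 0.086 and 0.066. The distal appendage genes were near Control. Cep83, the base of the distal appendage, had log2 ratios of 0.032, 0.021 and -0.021. Cep89, which is built on it, had -0.0068, 0.059 and 0.069, and Cep164, which docks vesicles and the kinase Ttbk2, had 0.038, 0.081 and 0.094. Signs turned under another scaling for Cep83 with D-PPMP and Cep89 with Miglustat.

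The subdistal appendage genes showed equally small values. Cep128 had log2 ratios of 0.079, -0.025 and 0.11, with signs that turned for Miglustat and D-PPMP, and Cep170, which binds microtubules there, had 0.058, 0.10 and 0.021. Of the linker that ties the centrioles together, Cep250 (C-Nap1) had -0.058, 0.16 and 0.084. All 3 of its probes were above Control with D-PDMP, between 0.091 and 0.18. Cep68, a linker protein that is broken down in mitosis, was at 1.01, 1.05 and 0.84 with the inhibitors, against 1.05 in Control. The array treated with D-PPMP was the lowest, at a log2 ratio of -0.21, just past the software error, and those of Miglustat and D-PDMP were at -0.042 and 0.0029.

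Cep350, Cep43 and Cep19 encode proteins that form a complex at the older centriole, where Cep19 brings the small GTPase Rabl2 to the ciliary base. Cep350 had log2 ratios of 0.12, 0.16 and 0.095 with Miglustat, D-PDMP and D-PPMP, and none of its 3 probes was below Control with D-PDMP or D-PPMP. Cep43 had 0.20, 0.092 and 0.064. Cep19 was at 2.10, 2.37 and 2.26 with the inhibitors, against 2.28 in Control. Its ratios were -0.18, 0.091 and -0.020, of which the first was the lowest of any Cep gene with Miglustat and still within the software error.

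Of the 9 genes of satellites, the transition zone and the cilium, 1, 2 and 1 were called higher with Miglustat, D-PDMP and D-PPMP. The shares over all genes were 5.77%, 4.91% and 7.54%. Called lower were 0, 0 and 1, against 4.59%, 4.8% and 5.23% of all genes. The genes called higher (Cep72, Cep126 and Cep78) each rest on 1 measured probe. In this group 6, 6 and 7 genes were above Control under Miglustat, D-PDMP and D-PPMP, and the median log2 ratio was 0.018, 0.083 and 0.057. Single genes ran between -0.39 and 0.49.

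Cep41 was lower with D-PPMP, and all 4 of its probes lay below Control there. Cep41 takes part in adding glutamates to the tubulin of the cilium, and mutations of the human gene cause Joubert syndrome. Its log2 level was 0.59, 0.30 and 0.10 with Miglustat, D-PDMP and D-PPMP, against 0.49 in Control. The array treated with D-PPMP was the lowest of the 4, and that of Miglustat the highest. The log2 ratio with D-PPMP was -0.39, so that Control was 1.31-fold above it, and over the scalings it ran between -0.40 and -0.30. With D-PPMP the 4 probes ran between -0.48 and -0.39. With Miglustat all 4 were above Control, between 0.078 and 0.18, and with D-PDMP 3 were below and 1 above, between -0.19 and 0.086.

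Ciliary genes are often switched on by RFX factors, which bind a palindrome called the X-box. The Cep41 promoter is shown because it holds a form of this palindrome, GTTGCCNNNGGCAAC, at position -131 from the start, and CCAAT boxes at -59 (on the opposite strand) and -36, all in capitals. The window is chr6:30693700-30693999, minus strand, GRCm38.p6, from RefSeq.
Cep41: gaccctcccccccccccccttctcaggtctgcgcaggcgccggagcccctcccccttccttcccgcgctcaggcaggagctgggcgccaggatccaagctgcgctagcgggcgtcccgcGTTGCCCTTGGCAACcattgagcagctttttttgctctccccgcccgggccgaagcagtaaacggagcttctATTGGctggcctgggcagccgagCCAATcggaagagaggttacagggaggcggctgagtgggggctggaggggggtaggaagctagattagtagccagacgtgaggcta
The palindrome was looked for after this sequence had been seen. On either strand it was in 1 of 29 Cep promoters, in 5 of 11115 promoters of genes well above background on all arrays, and in 8 of 27025 promoters in all.

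Cep78 was above Control on all 3 treated arrays and was called higher with D-PDMP and D-PPMP. Cep78 encodes a centriole wall protein, and mutations of the human gene cause a cone-rod dystrophy with hearing loss. Measured log2 levels were -1.84, -1.64 and -1.67 with Miglustat, D-PDMP and D-PPMP, against -2.05 in Control. The fold over Control was 1.33 with D-PDMP and 1.30 with D-PPMP, log2 ratios of 0.41 and 0.38, and it was 1.16 with Miglustat, a ratio of 0.21. All 3 ratios share the Control value, which was the lowest of the 4. Cep78 has 1 probe and was left out when only genes above the median level were kept. Under other scalings the ratio ran between 0.16 and 0.41 with D-PDMP and between 0.097 and 0.38 with D-PPMP, and with Miglustat it came to -0.0014 with normexp on the median spot signal.

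Cep72, a satellite protein needed for an intact spindle pole, was higher with Miglustat. Levels (log2) were -0.85, -1.41 and -1.32 with Miglustat, D-PDMP and D-PPMP, against -1.26 in Control. The array treated with Miglustat stood alone at the top, 1.33-fold over Control (log2 ratio 0.41), and the others were at -0.14 and -0.060. The ratio with Miglustat ran between 0.20 and 0.43 over the scalings and rests on 1 probe. The Cep72 promoter is shown because it holds TTTGAA, the core of the CHR element through which genes of mitosis are often timed, at position 15 after the start and in capitals (chr13:74062236-74062535, minus strand, GRCm38.p6, from RefSeq). These letters are common, in 15.1% of the windows of measured genes and 20.2% of all windows, and no binding was measured.
Cep72: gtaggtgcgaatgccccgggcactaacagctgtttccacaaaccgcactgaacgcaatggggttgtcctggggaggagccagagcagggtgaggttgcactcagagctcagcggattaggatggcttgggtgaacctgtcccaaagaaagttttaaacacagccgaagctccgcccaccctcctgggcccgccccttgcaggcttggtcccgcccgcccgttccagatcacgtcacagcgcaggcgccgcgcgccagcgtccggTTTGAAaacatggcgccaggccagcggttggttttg

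Cep126, a satellite protein that organizes microtubules, was higher with D-PDMP by its measured probe. The measured log2 level was -4.30, -3.69 and -4.18 with Miglustat, D-PDMP and D-PPMP, against -4.19 in Control, and its software error was the largest of any member. The array treated with D-PDMP was the highest, 1.41-fold over Control (log2 ratio 0.49), and the ratio ran between 0.15 and 0.49 over the scalings. The other probe of Cep126 was not well above background on any array, so these values rest on 1 probe. For the brighter probe, Miglustat gave a ratio of -0.11 and D-PPMP one of 0.011, whose sign turned under another scaling.

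**Figure D3:**
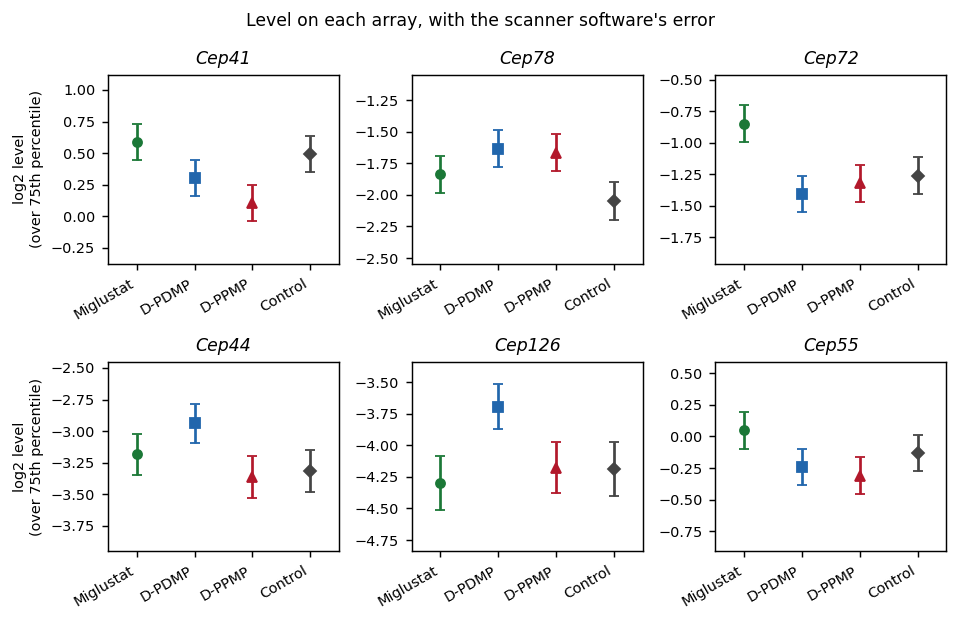
Log2 level on each array (vertical axis, relative to the 75th percentile of the array) of the 5 Cep genes called in any comparison and of Cep55; bars are the error the scanner software gives for that level, not a replicate error. Cep41 is lowest with D-PPMP at 0.10, Cep72 highest with Miglustat at -0.85, Cep44 and Cep126 highest with D-PDMP at -2.94 and -3.69, and Cep78 lowest in Control at -2.05.

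The remaining genes of this group were not called with any inhibitor. Cep290, the gate protein of the transition zone and a frequent cause of human ciliopathies, had log2 ratios of 0.011, 0.21 and 0.069 with Miglustat, D-PDMP and D-PPMP. Cep162, which joins the axoneme to the transition zone, had -0.088, 0.083 and 0.076. The satellite gene Cep131 had -0.091, -0.050 and 0.048, although its other probe was at -0.61 with D-PPMP. Cep20, which acts in the first steps of making a cilium, had 0.13, 0.085 and 0.057. Signs turned under another scaling for Cep290 with Miglustat and D-PPMP.

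Cep55 acts at the midbody, where it brings in the ESCRT machinery that cuts daughter cells apart. Its log2 level was 0.047, -0.24 and -0.31 with Miglustat, D-PDMP and D-PPMP, against -0.13 in Control. Miglustat was above Control (log2 ratio 0.18) and D-PDMP and D-PPMP below it (-0.11 and -0.18), all within the software error, and the direction held in every scaling. The second probe gave 0.19, -0.16 and -0.022. In a list of 30 other genes of mitosis and cytokinesis, 28, 14 and 19 were above Control with the 3 inhibitors, with medians of 0.18, -0.0082 and 0.0099. The ends of that list were Prc1, a midzone bundling protein, at 0.37 with Miglustat, and the spindle kinase gene Aurka at -0.25 and -0.27 with D-PDMP and D-PPMP.

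Of the 3 genes with less settled roles, Cep70 was above Control on every treated array. Its log2 level was 0.33, 0.27 and 0.36 with Miglustat, D-PDMP and D-PPMP, against 0.13 in Control. The ratios were 0.20, 0.13 and 0.23, and that with D-PPMP exceeded the software error. Cep70 binds gamma-tubulin and helps to organize microtubules in human cells. Cep95 had ratios of 0.0042, -0.093 and -0.032, and Cep112 had 0.077, -0.090 and 0.0044, with signs that turned under another scaling for Cep95 with Miglustat and Cep112 with D-PPMP.

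Different probes of the same Cep gene did not always lie on the same side of Control. In 23 genes with at least 2 probes well above background on all arrays (54 probes), every probe lay on the same side of Control for 13, 19 and 13 genes with Miglustat, D-PDMP and D-PPMP. Among the genes with probes on both sides with D-PPMP were Cep295, Cep43 and Cep128. Their second probes gave 0.26, -0.15 and -0.15 there, opposite in sign to the brightest. The median range between probes of a gene was 0.14, 0.080 and 0.16 on the log2 ratio scale. The widest ranges were 0.78 for Cep85 with Miglustat, 0.67 for Cep97 with D-PDMP and 0.66 for Cep131 with D-PPMP. Probes can read different transcripts of a gene, and which transcripts these were was not tested.

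**Figure D4:**
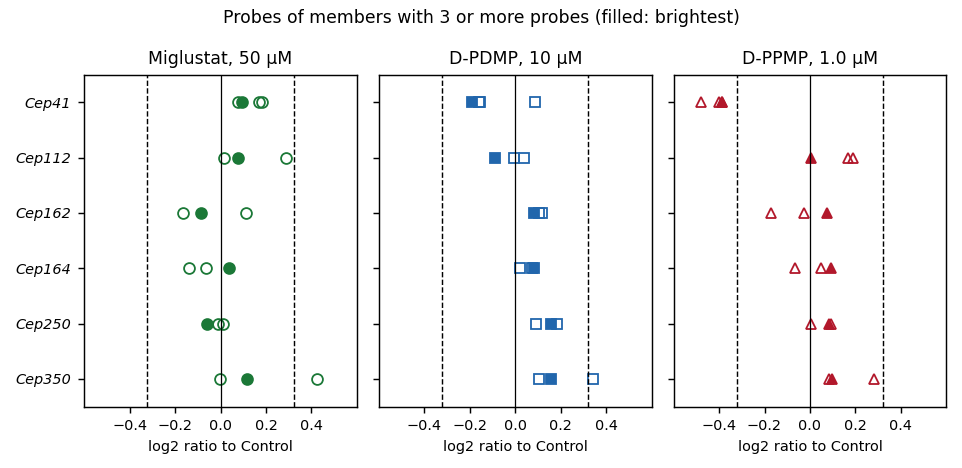
Log2 ratio to Control (horizontal axis) of every probe of 6 Cep genes with at least 3 probes, filled for the brightest, with dashed lines at 0.32 in either direction. The Cep41 probes with D-PPMP lie together between -0.48 and -0.39, while the Cep350 probes with Miglustat spread between -0.0026 and 0.43.

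The other genes of the centrosome and cilium, taken from lists that leave out the Cep genes, also differed little from Control. Of 15 genes of centriole duplication and length, 9, 13 and 8 were above Control under Miglustat, D-PDMP and D-PPMP, with median log2 ratios of 0.095, 0.073 and 0.052. In this list 1 gene was called, Rttn, a centriole elongation gene, at 0.34 with D-PPMP. Among 17 genes of the pericentriolar material, which nucleates microtubules, 11, 15 and 14 were above Control, with medians of 0.054, 0.11 and 0.080. Sdccag8 was at 0.38 with D-PDMP and 0.34 with D-PPMP, called in both. For 9 centriolar satellite genes the counts were 7, 7 and 7 and the medians 0.050, 0.16 and 0.11, with no gene called. The last of these medians became -0.017 when the probes of a gene were averaged.

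The lists closest to the cilium had medians nearer 0 than that of the Cep genes. Of 15 other appendage and linker genes, 7, 9 and 10 were above Control under Miglustat, D-PDMP and D-PPMP, with median log2 ratios of -0.0065, 0.016 and 0.032. Signs of these medians turned under 2 alternatives for Miglustat and 2 for D-PPMP, and Ankrd26, a distal appendage gene, was at -0.39 with D-PPMP. Of 33 genes of the transition zone and ciliary transport, 14, 22 and 18 were above Control, with medians of -0.029, 0.013 and 0.011, the last pair turning sign under 1 alternative each. The transport gene Ift74 was at 0.33 with D-PDMP, and the Joubert syndrome gene Ahi1 was at -0.37 with D-PPMP.

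Genes of DNA replication lay farther from Control than the centrosome lists did with Miglustat and D-PPMP. With D-PDMP their median was close to that of the satellite list, at 0.17 against 0.16. Of 25 genes of the G1/S step and DNA replication, 5, 25 and 24 were above Control under Miglustat, D-PDMP and D-PPMP, with median log2 ratios of -0.16, 0.17 and 0.18. The proliferation marker Mki67 was at 0.19, 0.12 and 0.13. The part of the cell cycle in the Cep values was not tested.

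**Figure D5:**
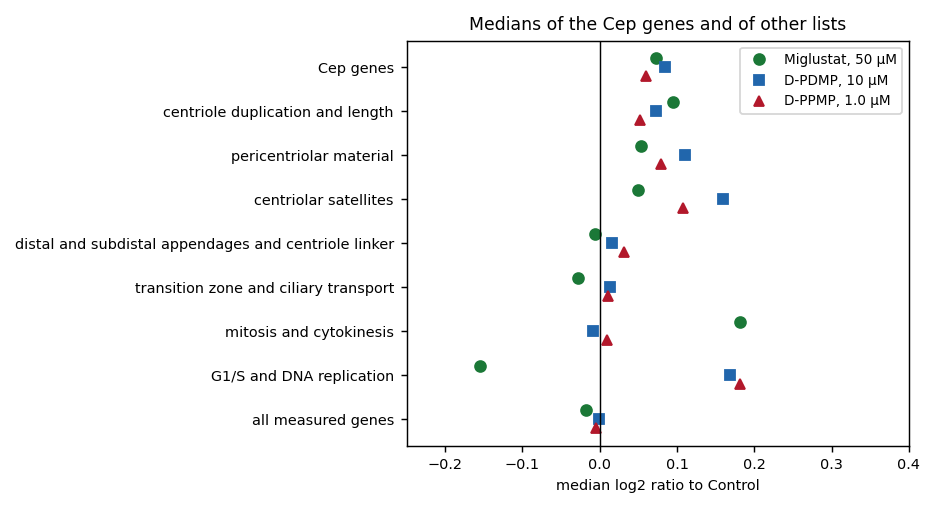
Median log2 ratio to Control (horizontal axis) of the Cep genes, of 7 other lists and of all measured genes, 1 array per group. The Cep medians of 0.072, 0.084 and 0.060 lie among those of the centriole, pericentriolar and satellite lists, while the replication list spans -0.16 with Miglustat to 0.18 with D-PPMP.

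The promoters of the Cep genes were searched for motifs of cell cycle and ciliary genes. A RefSeq window was found for 29 of the 34 genes, with a median of 25 CpG per window, against 20 for genes well above background on all arrays and 7 for all genes in the table. On either strand, TTTGAA was in 8 of 29 Cep windows (27.6%), against 15.1% of the windows of measured genes and 20.2% of all windows. TTCCCGCC was in 5 (17.2%), those of Cep44, Cep70, Cep112, Cep152 and Cep295, against 4.47% and 2.52%. CCAAT was in 15 (51.7%), against 43.1% and 41.1%. GTTGCC, the arm of the X-box, was in 7 (24.1%), those of Cep19, Cep41, Cep57, Cep97, Cep112, Cep128 and Cep164, against 14.4% and 14.1%, and the palindrome counts as a match to it. The window of Cep78, also a called gene, held none of these motifs and is not printed. The shares describe letters in short windows and were not tested.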

How the data were processed

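RNA of MC3T3-E1 cells was labelled with Cy3 by Agilent's low input protocol, per the labels' protocols. The deposited scanner files hold spot intensity values from Agilent Feature Extraction 12.1.1.1, corrected for background by the software and still without scaling between arrays, per the file headers. The authors' deposited table holds log2 values. Set against the scanner files, they equal log2 of the processed signal, floored at 1, minus the 75th percentile of the array, so genes are not centred and a higher value means a brighter probe. Their medians were -3.99, -3.99 and -3.88 with Miglustat, D-PDMP and D-PPMP, and -4.09 in Control. How the authors made the table is not given in the sources used here.

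Control spots and spots marked as outliers (67, 66 and 85 with the inhibitors, 70 in Control) were left out. The 75th percentile over 56605 probes was subtracted from log2 of the processed signal. Probes were named by accession from a RefSeq table (GRCm38.p6): 32994 (58.3%) matched a gene and 23611 stayed unnamed. Names are from RefSeq and no array coordinates are given. A ratio (fold) is that of 2 arrays. Python 3.11.15, pandas 2.3.3, R 4.3.3 and limma 3.58.1 (for normexp, quantile and cyclic loess) were used, with 9 alternatives. Normexp with an offset of 50 was run on the median spot signal, a choice made after seeing the data, since the scanner files as given hold no mean spot signal, and the planned version on that was not run.

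Every Cep gene may be named, except 1 that is not reported here by name and stays in the counts and medians. Levels on each array are given for those called and for the 3 highest and 3 lowest per comparison. Genes of other lists are named for their place at the end of the list or because they were called, chosen after their values were seen. The members and lists were chosen with earlier results of these data known. The array number, 1 per group, limits the precision.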

Additional observations from a re-analysis of the deposited data

Results flagged for a closer look

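A second probe of Cep83, for another transcript of the distal appendage gene, was well above background with Miglustat alone and is used in no comparison of the report. Its processed signal was 12.6, 1.03 and 1.01 with Miglustat, D-PDMP and D-PPMP, against 1.06 in Control. This makes it at least 2.50-fold higher with Miglustat, taken against the lowest signal well above background in Control. The brightest Cep83 probe had log2 ratios of 0.032, 0.021 and -0.021. Of the 4 nearest spots in the same column of the array, which hold other probes, 3 were also high with Miglustat, at signals of 15.6, 26.1 and 23.1 for the spot before it and the next pair after it, against 1.06, 1.77 and 1.06 in Control. The spot before these had signals of 6.73, 6.97 and 9.79 with Miglustat, D-PDMP and D-PPMP, against 4.26 in Control. Like bounds of at least 2-fold with Miglustat were found for 93 probes, 0.164% of 56605. The part of the position on the array was not tested.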

How the results depend on the processing

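No paired analysis was possible because each group has 1 array, and for the same reason no replicate could be left out. Over the 9 alternatives, the median of the Cep genes ran between 0.042 and 0.097 with Miglustat, 0.053 and 0.089 with D-PDMP, and 0.018 and 0.064 with D-PPMP. Counts of called Cep genes were less stable. With normexp on the median spot signal, which changes the input signal, the background model and the offset together, 0 were higher with any of the 3 inhibitors, and 0 were lower with D-PPMP; the cause was not tested. Among genes above the median level only, 0 were higher with D-PDMP and 0 with D-PPMP. The genes called higher with those inhibitors, Cep126, Cep78 and Cep44, were not above that level and were left out. Under quantile and cyclic loess scaling, 0 were higher with D-PPMP and 2 with D-PDMP. There Cep78 came to 0.3053 and 0.2925 with D-PPMP, and Cep44 to 0.3218 and 0.2872 with D-PDMP. These lie below the unrounded limit of 0.3219 and within the tolerance for single genes. Why the scalings changed these ratios was not tested. The satellite median with D-PPMP came to -0.017 with probes averaged. Of the values and counts for the groups, 261 stayed within their tolerance and 9 moved. For single genes, 118 stayed and 6 moved. Those that stayed include alternatives that could hardly change a value, such as no filter on dim probes and the authors' table. Dim members such as Cep126 and Cep44 have the least signal over background.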
